A study of Mus musculus with 9 samples.

Results

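Serotonin neurons of the brain lie mostly in the raphe nuclei along the midline of the brainstem, and 6 genes known from these neurons and from receptors for serotonin were followed here in the mouse substantia nigra (SN), Tph2, Slc6a4, Fev, Htr1a, Htr1b and Htr2c. They were chosen by values of these arrays, because Tph2 and Slc6a4 were uneven in the saline arrays and low in the arrays of methylphenidate (MPH), so their differences from saline are given as a description and not as a test. Every probe set (a group of short probes for 1 transcript) whose platform annotation names 1 of the 6 genes was taken. This gave 7 probe sets for 5 of the 6 genes, among 45037 probe sets of which those naming a single gene cover 17097 genes. Fev, an ETS-family transcription factor of serotonin neurons also called Pet1, had no matched probe set and was not analysed here.

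The data are 9 Affymetrix HT MG-430 PM arrays of SN mRNA from Swiss Webster mice, 3 from mice given saline, 3 labelled 1 mg/kg MPH and 3 labelled 10 mg/kg MPH. MPH is a stimulant that blocks the dopamine and noradrenaline transporters. Injections were intraperitoneal and once daily on a school-week schedule, started in juvenile mice, went on for about 3 months and were followed by a drug-free week, and the saline mice shared this schedule. The SN was cut out by its position along the brain axis, and the sources used here do not say whether an array held 1 mouse or a pool. The doses follow the deposited labels. The study's own gene lists carry the 2 doses the other way round for the same arrays, and nothing in the values settles which dose is meant.

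Values are log2 intensities, on which a difference of 1 is a doubling. The study describes a correction for the batch of the 3 replicates. If the deposited values hold it, arrays of the same replicate number are not independent of each other. The 9 arrays had medians of 4.49 to 4.53, and 23 nonspecific controls had a median of 2.93 (highest single value 5.29), so a value close to 3 was taken as background. Of 10 dopamine neuron markers, which define this tissue, Th (tyrosine hydroxylase, which makes the dopamine precursor) lay between 10.31 and 11.18 over the 9 arrays. Markers of neighbouring regions differed between the arrays, and the tissue content of the arrays was not tested. The mean of the 6 thalamus markers was lowest in saline replicate 2 (6.30) and in 10 mg/kg MPH replicate 1 (6.77). It was 7.52 to 8.78 in the other 7 arrays. The mean of the 9 cortex and hippocampus markers was highest in 10 mg/kg MPH replicate 1 (6.45, against 5.20 to 5.59). RNA quality was read from controls for the 3' end of Actb minus its 5' end, a difference that grows with degradation. It was 0.882 to 0.934 for saline and 1.03 to 1.19 for the 6 MPH arrays, with no overlap, and for Gapdh the ranges overlapped (0.231 to 0.387 and 0.224 to 0.409).

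Serotonin is made from tryptophan. Tph2, tryptophan hydroxylase 2, carries out the rate-limiting step in neurons, Ddc completes the synthesis, and tetrahydrobiopterin, made from GTP by a pathway that starts with Gch1, is the cofactor of Tph2 and of Th alike. Released serotonin is taken up again by the transporter that Slc6a4 encodes and is broken down by monoamine oxidases. Htr1a and Htr1b encode inhibitory receptors, of which the first is found on the cell bodies of serotonin neurons and the second on their terminals, as well as on other neurons. Htr2c encodes an excitatory receptor on target neurons and on the choroid plexus. Raphe neurons send axons into the SN, but the mRNA of Tph2 and Slc6a4 is found mainly in the cell bodies.

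Of the measured members, Tph2, Slc6a4 and Htr1a, had array profiles that ran together, and Fev protein is known to bind the GGAA core of ETS sites near genes of this kind. The 300 bases around the start of these 3 genes (250 before it and 50 after, RefSeq, build GRCm38.p6) are therefore shown 5' to 3' on the strand of the gene, with each GGAA or its reverse complement TTCC in capitals.
Tph2: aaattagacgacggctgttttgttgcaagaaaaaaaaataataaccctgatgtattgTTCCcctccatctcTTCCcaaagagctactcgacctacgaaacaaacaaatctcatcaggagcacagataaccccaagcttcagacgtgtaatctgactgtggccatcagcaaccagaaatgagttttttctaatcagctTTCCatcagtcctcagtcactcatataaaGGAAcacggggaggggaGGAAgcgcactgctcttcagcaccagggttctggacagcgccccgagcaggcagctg
Slc6a4: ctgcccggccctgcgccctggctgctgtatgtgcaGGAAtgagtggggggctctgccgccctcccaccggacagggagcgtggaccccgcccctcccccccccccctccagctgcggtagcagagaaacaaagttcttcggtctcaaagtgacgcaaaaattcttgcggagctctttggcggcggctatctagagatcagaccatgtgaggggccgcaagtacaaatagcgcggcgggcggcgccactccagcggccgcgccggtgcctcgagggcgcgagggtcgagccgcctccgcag
Htr1a: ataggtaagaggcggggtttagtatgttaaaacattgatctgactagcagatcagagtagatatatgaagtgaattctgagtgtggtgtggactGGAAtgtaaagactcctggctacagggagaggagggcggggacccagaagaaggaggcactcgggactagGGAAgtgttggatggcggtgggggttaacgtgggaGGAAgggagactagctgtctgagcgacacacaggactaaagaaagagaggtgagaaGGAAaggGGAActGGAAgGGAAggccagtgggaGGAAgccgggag
The Tph2 window lies at chr10:115184973-115185272 on the minus strand, that of Slc6a4 at chr11:76998347-76998646 on the plus strand and that of Htr1a at chr13:105443443-105443742 on the plus strand. The core was found 5 times in the Tph2 window, once in that of Slc6a4 and 8 times in that of Htr1a. It was also found 6 times in the Htr1b window and 5 times in the Htr2c window, genes whose profiles did not follow Tph2, and 96.0% of all 32851 windows of this length hold it on either strand. The longer run CGGAAG, which contains the core, was in none of the 3 windows shown and was in 16.9% of all windows. It was in the Htr1b window and not in that of Htr2c. A TATAAA run, searched on both strands and found in 13.6% of all windows, began 30 bases before the start of Tph2, directly followed by a GGAA, and was absent from the Slc6a4 and Htr1a windows. The windows of Tph2, Slc6a4 and Htr1a were 47.3%, 67.7% and 52.3% G and C.

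Tph2 was high in a pair of saline arrays and low in most others. Its single probe set (1435314_PM_at) had log2 values of 4.24, 7.47 and 6.96 in saline replicates 1, 2 and 3. The arrays labelled 1 mg/kg MPH had 3.88, 3.20 and 3.47, and those labelled 10 mg/kg MPH had 5.21, 3.61 and 3.32. Saline replicate 1 thus stood apart from the other 2 saline arrays, and 10 mg/kg MPH replicate 1 lay above it. All 3 arrays labelled 1 mg/kg MPH lay below all saline arrays, and the 10 mg/kg group overlapped saline. The saline arrays spanned 3.22, and only 4 of the 45037 probe sets had a larger saline range, where the median range was 0.168. In order of level, the saline replicates 2 and 3 came first, then 10 mg/kg MPH replicate 1 and saline replicate 1, and the other 5 arrays followed between 3.20 and 3.88, which is the range of the 1 mg/kg group alone (0.68).

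Slc6a4, the serotonin transporter, followed the same order at its upper end. Its probe set (1417150_PM_at) had log2 values of 4.07, 6.44 and 5.55 in saline replicates 1, 2 and 3. The values were 3.84, 3.15 and 3.39 in the arrays labelled 1 mg/kg MPH and 4.31, 3.38 and 3.56 in those labelled 10 mg/kg MPH. Again saline replicates 2 and 3 were the highest arrays, 10 mg/kg MPH replicate 1 came next above saline replicate 1, and only the 1 mg/kg group lay wholly below saline. The saline range was 2.37, exceeded by 14 probe sets. In the MPH arrays other than 10 mg/kg MPH replicate 1, Slc6a4 (3.15 to 3.84) and Tph2 lay near background. Little can be read from differences among those arrays.

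Htr1a was measured by a pair of probe sets that differed in signal. The brighter one (1438710_PM_at) had log2 values of 5.44, 6.57 and 6.17 in saline, 4.96, 4.93 and 5.36 in the arrays labelled 1 mg/kg MPH and 6.14, 5.27 and 5.06 in those labelled 10 mg/kg MPH, numbered as replicates 1 to 3. Its highest arrays were the same as those of Tph2, with 10 mg/kg MPH replicate 1 close to saline replicate 3. The saline range of 1.14 was exceeded by 167 probe sets. The dimmer one (1450219_PM_at) stayed between 3.15 and 3.52 in all 9 arrays, near background, and no level of Htr1a can be read from it.

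The other receptors did not share this profile. Htr1b (1422288_PM_at) lay between 4.59 and 4.93 in all 9 arrays, with 4.59, 4.63 and 4.78 in the saline replicates. Htr2c was bright by 1 probe set (1435513_PM_at), with 10.70, 10.43 and 10.40 in saline and 10.30 to 10.70 in the MPH arrays, and its lowest array was 10 mg/kg MPH replicate 1. By the dimmer one (1450477_PM_at) Htr2c lay at 4.98, 4.74 and 4.26 in saline and between 4.24 and 4.79 in the MPH arrays. For these 3 probe sets the groups overlapped in both comparisons with saline, and the range over all 9 arrays was 0.35, 0.41 and 0.74, compared with a median of 0.345 over all probe sets and 4.26 for Tph2.

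**Figure D1:**
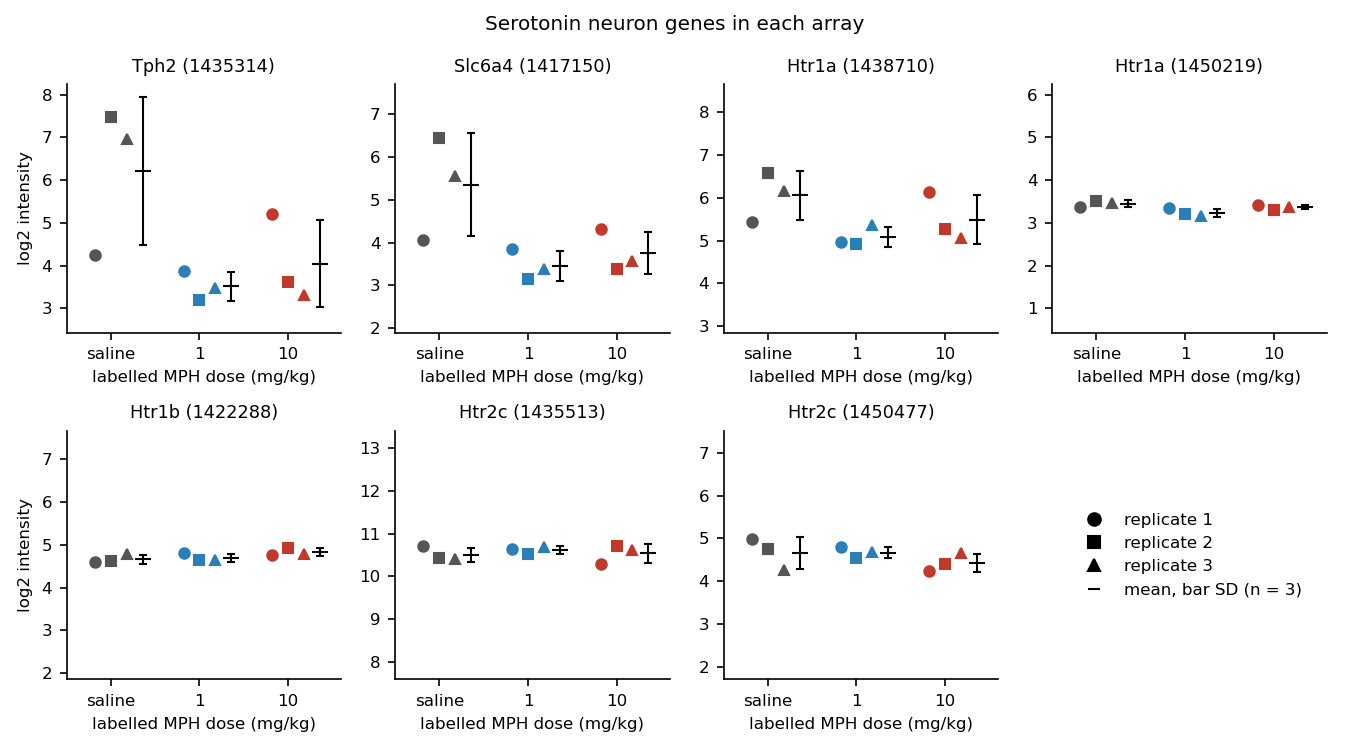
Log2 intensity of the 7 probe sets in each of the 9 arrays, by labelled MPH dose in mg/kg, with the marker shape giving the replicate number and the black bar the group mean and SD (n = 3). Every panel spans the same number of log2 units. The saline points of Tph2 run from 4.24 to 7.47, whereas those of Htr1b run from 4.59 to 4.78.

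The mean of Tph2 was 6.22 ± 1.73 (SD, n = 3) in saline, 3.52 ± 0.340 (n = 3) in the arrays labelled 1 mg/kg MPH and 4.04 ± 1.02 (n = 3) in those labelled 10 mg/kg MPH. In a linear model over all probe sets (limma, with a block for the replicate number) the log2 difference from saline was -2.71 (SE 0.85) at the label of 1 mg/kg and -2.18 (SE 0.85) at the label of 10 mg/kg. Among all 45037 probe sets the first was the lowest difference and the second was reached or passed by 2 probe sets including Tph2 itself, but both use the arrays by which the gene was chosen. Slc6a4 differed from saline by -1.90 and -1.60 (SE 0.56 each), and Htr1a by the brighter probe set by -0.97 and -0.57 (SE 0.36 each). The differences of Tph2 and Slc6a4 are taken from MPH values near background in all but 10 mg/kg MPH replicate 1. Htr1b differed by 0.03 and 0.16 (SE 0.10 each), and the bright probe set of Htr2c by 0.11 and 0.03 (SE 0.14 each). In bulk tissue, fewer cells of a type and less RNA per cell cannot be told apart.

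No member passed an adjusted p of 0.05 against saline, 0 of 7 probe sets in either comparison, where 0% of all probe sets passed in each (limma, with 4637 and 4318 probe sets at an unadjusted p under 0.05). Without the block, still 0 of 7 passed, against 54 probe sets or 0.120% of all in the arrays labelled 1 mg/kg MPH and 115 or 0.255% in those labelled 10 mg/kg MPH. All 3 arrays labelled 1 mg/kg MPH lay below all saline arrays in 4 of 7 probe sets, where 12.4% of all did so. The 4 were those of Tph2, Slc6a4 and Htr1a, of which the dimmer Htr1a one lay near background. All 3 arrays labelled 10 mg/kg MPH lay below all saline arrays in 0 of 7, where 13.1% of all did so. Since the rule used these contrasts, nothing is read from these counts.

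Single arrays set the size of these differences. Without saline replicate 1 the difference of Tph2 was -4.08 and -3.55 at the labels of 1 and 10 mg/kg, and that of Slc6a4 was -2.77 and -2.48. Without saline replicate 2 the Slc6a4 difference was -1.18 and -0.89, and that of Tph2 was -1.90 and -1.37. For Htr1a at the label of 10 mg/kg the difference was -0.22 without saline replicate 2, -0.26 and -0.37 without 10 mg/kg MPH replicates 3 and 2, -1.01 without saline replicate 1 and -1.08 without 10 mg/kg MPH replicate 1. At the label of 1 mg/kg it was -0.62 without saline replicate 2. With both arrays of the lowest thalamus markers left out, saline replicate 2 and 10 mg/kg MPH replicate 1, a choice made after the values were seen, Tph2 differed by -2.11 and -2.41 and Slc6a4 by -1.27 and -1.33.

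**Figure D2:**
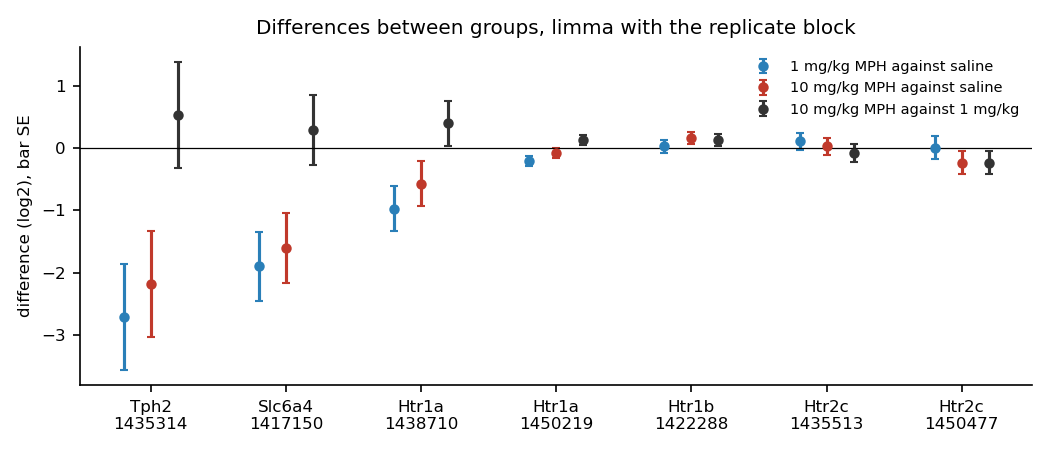
Log2 difference between groups for the 7 probe sets from limma with the replicate block, with bars giving the standard error, for each MPH label against saline and for 10 against 1 mg/kg MPH. Tph2 at -2.71 and -2.18 has the lowest differences from saline and also the widest bars (0.85), and the 10 against 1 mg/kg points lie around 0.

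The 2 MPH labels were compared with each other. The choice of genes did not use the difference between them, but it rested on low Tph2 and Slc6a4 values in the MPH arrays. The tests of these 2 genes are thus not independent of the choice, and nothing is read from them. Most of their MPH values also lay near background. No member passed, 0 of 7 probe sets with 0% of all probe sets passing (limma with the block, 2879 probe sets at an unadjusted p under 0.05, and 0 passing without the block). Tph2 was higher by 0.53 at the label of 10 mg/kg than at 1 mg/kg (95% interval -1.46 to 2.52, limma adjusted p = 0.927, exact permutation p = 0.6), and Slc6a4 by 0.29 (95% interval -1.02 to 1.60, limma adjusted p = 0.941, exact permutation p = 0.6). The brighter Htr1a probe set was higher by 0.40 (95% interval -0.44 to 1.25, limma adjusted p = 0.857). The interval of Tph2 includes a doubling in either direction. Those of Htr1b (0.13, 95% interval -0.09 to 0.36, limma adjusted p = 0.827) and of the bright Htr2c probe set (-0.08, 95% interval -0.40 to 0.24, limma adjusted p = 0.930) were narrower. The dimmer probe sets of Htr1a and Htr2c gave 0.13 and -0.23 (limma adjusted p = 0.814 and 0.845). The exact two-sided permutation p lay between 0.2 and 0.7 for the 7 probe sets, and 3 arrays against 3 cannot go below 0.1. Without 10 mg/kg MPH replicate 1 the sign turned for Tph2 (-0.46), Slc6a4 (-0.21), the brighter Htr1a probe set (-0.11) and the bright Htr2c probe set (0.10).

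Over the 9 arrays the correlation with Tph2 was r = 0.98 (rho = 0.93) for Slc6a4 and r = 0.94 (rho = 0.88) for the brighter Htr1a probe set. The points are 9 arrays in 3 groups, and the 2 arrays farthest from the median, saline replicates 2 and 3, carry much of the range, so no p is given. Without those 2 arrays r was 0.92 and 0.89. Taking each array as its deviation from the mean of its group, which removes the differences between groups, gave 0.96 and 0.90. In the 6 MPH arrays alone r was 0.93 and 0.89. For Slc6a4 these values restate the choice of the genes, which rested on the uneven saline arrays and low MPH arrays of Tph2 and Slc6a4, and they support nothing further. Htr1b had r = -0.12, and 0.25 within groups. The bright Htr2c probe set had r = -0.69 and -0.80 within groups, over a range of 0.41 only.

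**Figure D3:**
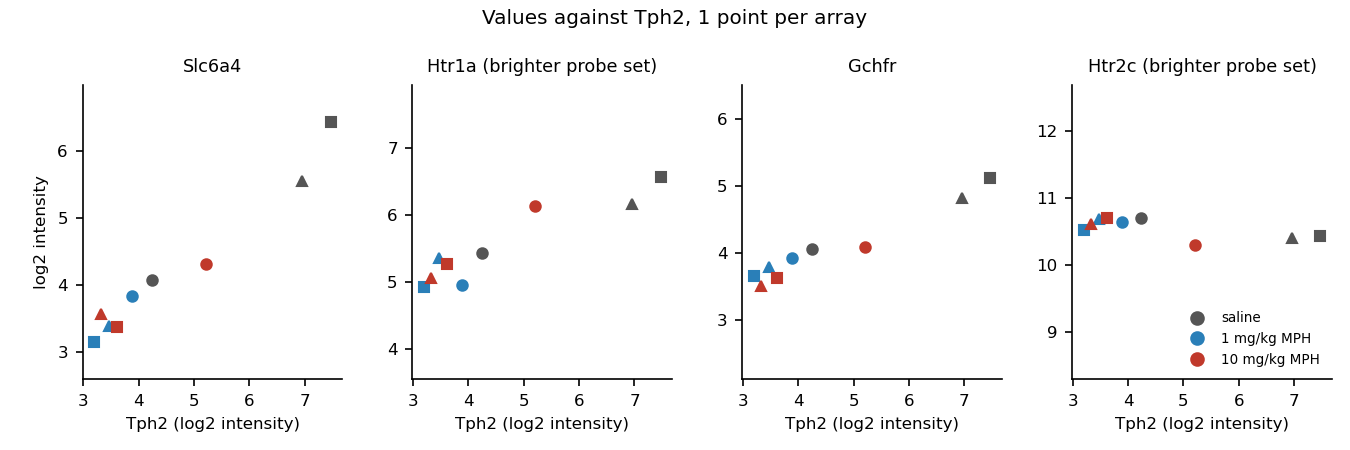
Log2 intensity of Slc6a4, Htr1a, Gchfr and Htr2c against that of Tph2, with 1 point per array, colour giving the group and shape the replicate number as in the plot of levels. Saline replicates 2 and 3 lie at the upper right for Slc6a4, Htr1a and Gchfr, and 10 mg/kg MPH replicate 1, at 5.21 for Tph2, lies between them and the other arrays.

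Outside the 6 genes, the profile most like that of Tph2 was that of Gchfr, which encodes the regulator that binds Gch1 and adjusts its activity to the cofactor. Among 888 probe sets of 762 genes with a highest array of at least 5 and a range of at least 1, Gchfr had the highest correlation (r = 0.98, and 0.99 within groups, 0.85 without saline replicates 2 and 3). Its log2 values were 4.06, 5.12 and 4.82 in saline, 3.92, 3.66 and 3.79 in the arrays labelled 1 mg/kg MPH and 4.09, 3.63 and 3.51 in those labelled 10 mg/kg MPH. Saline replicate 2, where Tph2 was highest, was the only array in which Gchfr, Myl1 and Ebf2 reached 5, so the limit on the highest array favours genes that are high there. In Gchfr saline replicates 2 and 3 were the highest, and saline replicate 1 lay between the first replicates of the MPH groups. The MPH values of Gchfr (3.51 to 4.09) and that of saline replicate 1 (4.06) lay not far above background. Little can be read from differences among those arrays.
The next 9 genes were Myl1 (a myosin light chain, r = 0.93), Ebf2 and Ebf3 (transcription factors of the EBF family, 0.93 and 0.92), Tacr3 (the neurokinin B receptor, 0.91), Npnt (nephronectin, a matrix protein, 0.90), Dmrta2 (a DMRT-family transcription factor, 0.88), Neurl1a (a ubiquitin ligase, 0.88), Postn (periostin, a matrix protein, 0.87) and Cttn (cortactin, which binds actin, 0.87). Within groups their correlation with Tph2 lay between 0.68 for Cttn and 0.91 for Myl1 and Dmrta2. Likeness by deviations from the group means, used in place of the plain correlation, named 10 genes of which 1, Gchfr, was shared. Tacr3 had 8.55, 9.17 and 9.09 in saline, 7.78 to 8.27 at the label of 1 mg/kg and 7.97 to 8.64 at the label of 10 mg/kg. Ebf2 reached 5.02 in saline replicate 2 and 4.29 in 10 mg/kg MPH replicate 1, and lay at 3.49 to 3.67 in the other MPH arrays.

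**Figure D4:**
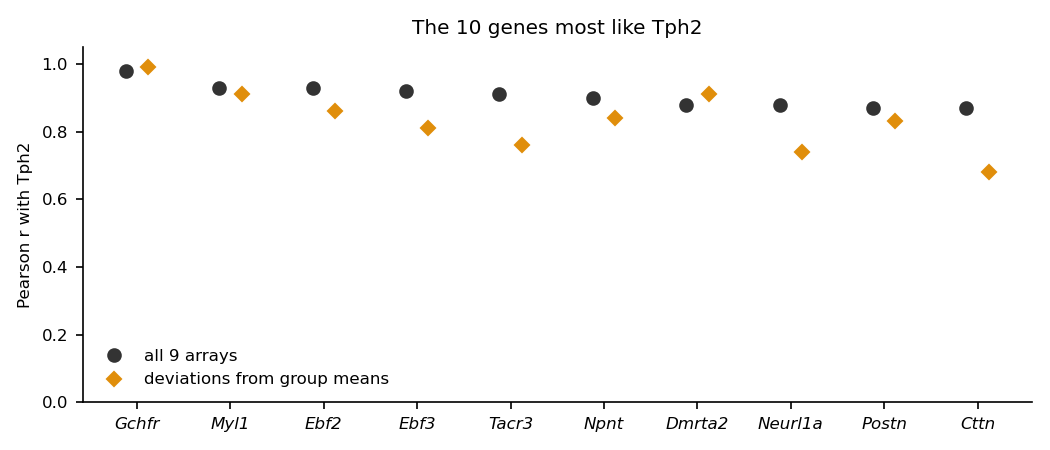
Pearson correlation with Tph2 of the 10 genes most like it, over all 9 arrays (circles) and for deviations from the group means (diamonds). Gchfr stays at 0.98 and 0.99, while Cttn goes from 0.87 to 0.68.

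The other genes that make, carry and break down serotonin had smaller differences. Of the 14 genes of this list 10 were measured, and their median difference from saline was -0.18 at the label of 1 mg/kg and -0.20 at 10 mg/kg, beside -0.0046 and -0.0075 over all probe sets. With the block 0 of 10 passed in either comparison, in either direction. Differences below 0 were found in 9 of 10 and in 7 of 10 genes. The list mean had a correlation of 0.91 with Tph2 over the 9 arrays and of 0.91 within groups. Gchfr, the gene most like Tph2, is part of this mean, and the list without it was not tested. Within groups the single genes did not run together. Gchfr (0.99), Gch1 (0.80) and Maob (0.79) followed Tph2, and Tph1 (0.07) and Slc29a4 (0.03) did not. Slc18a1 (-0.27), Spr (-0.33), Pts (-0.38), Qdpr (-0.42) and Ddc (-0.49) had negative correlations. The genes of the list furthest from saline were Gchfr (-0.87 and -0.92, SE 0.27), with MPH values not far above background, and Gch1 (-0.88 and -0.40, SE 0.10). Ddc (-0.40 and -0.38, SE 0.08) and Maob, a monoamine oxidase of serotonin neurons and glia (-0.35 and -0.21, SE 0.16), followed. Gch1 was the 1 gene of the list that passed without the block, lower at the label of 1 mg/kg (limma adjusted p = 0.0251, and 0.316 with the block), where 0.120% of all probe sets passed.
Gch1 and Ddc are genes of dopamine as well as serotonin neurons. Ddc had 12.31, 12.34 and 12.19 in saline and 11.80 to 11.96 in the MPH arrays, with no overlap. Its saline arrays were even, unlike those of Tph2, and its correlation with Tph2 was 0.64 over all arrays and -0.49 within groups. Gch1 lay at 7.22, 7.61 and 7.42 in saline and had correlations of 0.83 and 0.80. Tph1, the tryptophan hydroxylase of peripheral tissues and the pineal gland, stayed at background (2.93 to 3.18).

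Transcription factors of the serotonin lineage differed among themselves in how they ran beside Tph2. The list mean had a correlation of 0.85 with Tph2 (0.79 within groups), and single genes ranged from -0.83 (Nkx2-2) to 0.86 (En2). Of 10 genes 9 were measured, 0 passed with or without the block in either direction, and the median difference was -0.07 and -0.18 at the labels of 1 and 10 mg/kg. Lmx1b, needed by serotonin and dopamine neurons, was at background in all arrays (2.94 to 3.29). Gata3, a factor of serotonin neurons of the hindbrain and also of GABA neurons of the midbrain, lay between 6.23 and 6.67, and was lowest in saline replicates 1 and 2 (r = -0.32 with Tph2). En1 (-0.63 and -0.57, SE 0.18), Foxa2 (-0.54 and -0.61, SE 0.23) and En2 (-0.46 and -0.22, SE 0.11), which dopamine neurons express too, had negative differences, and Nkx2-2, which patterns the ventral neural tube, had positive ones (0.48 and 0.22, SE 0.13). Of these En2 had the correlation closest to that of the members (0.86, and 0.74 within groups), with 7.03, 7.43 and 7.32 in saline. The name of the group could be checked only in part, since Lmx1b was at background, Fev had no matched probe set, and the shared profile of Tph2 and Slc6a4 was the basis of the choice.

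The remaining serotonin receptors varied little, and many of them lay near background. Of 11 genes 10 were measured, with a median difference of -0.06 and 0.05, and 0 passed with or without the block. Those furthest from saline were Htr1d (-0.18 and -0.33, SE 0.11), Htr4 (0.05 and 0.25, SE 0.20), Htr3a (-0.23 and 0.05, SE 0.16) and Htr1f (0.06 and 0.23, SE 0.15). Htr3a, a receptor that is an ion channel, had its highest values in 10 mg/kg MPH replicate 1 (4.23) and saline replicate 2 (4.12). The median saline range of the 10 receptors was 0.24, and none exceeded 0.44. Htr1f (2.83 to 3.54), Htr2b (3.10 to 3.42), Htr3b (3.09 to 3.45), Htr5b (3.01 to 3.59) and Htr6 (3.29 to 3.50) lay near background. No level can be read from these, and their small ranges say little. Htr3a and Htr4 lay between 3.33 and 4.23. Htr1d (4.33 to 4.95), Htr5a (4.45 to 5.00) and Htr7 (6.31 to 6.82) lay higher.

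Markers of neighbouring cells and regions were set beside Tph2 array by array. The 10 dopamine neuron markers were even within saline (median saline range 0.26, largest 0.72) and had lower means in every MPH array. Relative to the saline mean the list lay at -0.65 to -0.54 at the label of 1 mg/kg and at -0.52 to -0.46 at 10 mg/kg. In both comparisons 9 of the 10 lay wholly below saline, where 12.4% and 13.1% of all probe sets did so. With the block 0 passed (0% of all probe sets), and without it 3 and 4 passed, where 0.120% and 0.255% of all did so. The mean of this list had a correlation of 0.75 with Tph2 over all arrays but of 0.04 for deviations from the group means. The low Tph2 of saline replicate 1 therefore had no counterpart there, where the dopamine markers lay at -0.01 relative to the saline mean.
The 6 thalamus markers ran the other way from Tph2, with r = -0.68, and -0.70 within groups. Each of the 6 had its lowest value in saline replicate 2, the array with the highest Tph2, and their list mean ranged from 6.30 to 8.13 in saline, from 8.24 to 8.78 at the label of 1 mg/kg and from 6.77 to 8.27 at 10 mg/kg. The lowest single value was 3.67 (Lhx9, saline replicate 2). Saline replicates 1 and 3 had similar thalamus means (8.13 and 7.92) and differed in Tph2 (4.24 and 6.96). The part of thalamus content in the Tph2 values was not tested.
The 9 measured cortex and hippocampus markers had a list mean of 5.20 to 5.51 in saline, 5.26 to 5.59 at the label of 1 mg/kg and 5.51 to 6.45 at 10 mg/kg, and Tbr1 was near background throughout (3.10 to 3.37). For 8 of the 9 the highest array was 10 mg/kg MPH replicate 1, the MPH array with the highest Tph2. Cux2, the remaining one, was lowest in that array (8.07). Noradrenaline neuron markers, which would mark the locus coeruleus, were measured by 3 of 4 genes, with a list mean of 3.75 to 3.92 in all 9 arrays and r = -0.29 with Tph2. Of these, Phox2a (3.20 to 3.46) and Slc6a2 (3.46 to 3.74) lay near background and Dbh at 4.24 to 4.78, so the list mean says little. Cholinergic and motor neuron markers (4 of 6 measured) had a list mean of 3.96 to 4.24 in saline and 3.84 to 4.30 in the MPH arrays (r = 0.24). Slc18a3 (2.97 to 3.17) and Slc5a7 (2.99 to 3.18) were at background, so Isl1 (4.53 to 6.32) and Prph (3.88 to 5.55) set its changes. Striatum markers (4 of 7 measured) had a list mean of 5.93 to 6.17 in saline and 5.68 to 5.91 in the MPH arrays (r = 0.69, and 0.40 within groups). Oligodendrocyte markers (5 of 6 measured) had 10.83 to 11.01 in saline and 10.40 to 11.01 in the MPH arrays (r = 0.28), and the 6 astrocyte markers had 8.69 to 9.11 and 8.72 to 8.95 (r = 0.35). Of the lists of other cells, the thalamus list was thus the one with a median saline range above 1 (1.60), beside 3.22, 2.37 and 1.14 for Tph2, Slc6a4 and Htr1a. The part of these markers, and of the Actb end difference, in the values of the 5 measured genes was not tested.

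**Figure D5:**
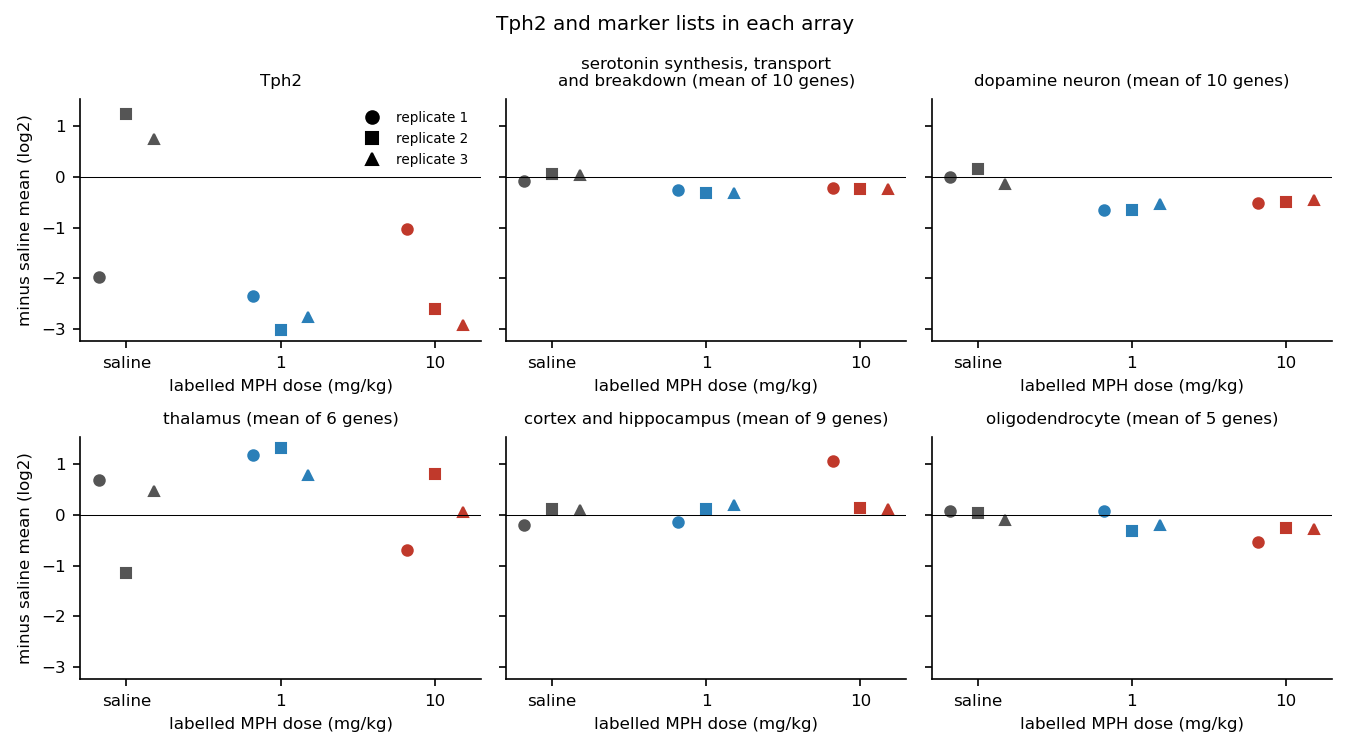
Tph2 and the mean of 5 marker lists in each array, as log2 difference from the saline mean, by labelled MPH dose in mg/kg, with marker shape for the replicate number and all panels on 1 axis. Dopamine neuron markers separate the MPH arrays from saline with little spread in saline, while the Tph2 value of saline replicate 1 lies at -1.98 and the thalamus markers lie at -1.15 in saline replicate 2.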

How the data were processed

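The deposited table holds log2 intensities from Robust Multichip Average (RMA), run by the authors, which corrects background, equalizes the distributions of the arrays and summarizes the probes. The tool's version is not given in the sources used here. The methods also name a ComBat correction for the batch of the 3 replicates, without saying whether the deposited values include it. Without the block, limma on the deposited values passed 54 probe sets at the 1 mg/kg label and 115 at the 10 mg/kg label. The paper reports the same counts with the doses the other way round, and its methods describe limma on data after ComBat. The deposited values thus gave the study's own counts, as values after the correction would, and whether they hold it was not tested further. If they do, a high array lowers the other arrays of its replicate number, and a low one raises them. Values of single arrays and correlations within groups would then carry part of the correction. The size of that part was not tested. Of 45141 probe sets, 104 controls were left out. The platform annotation named 1 gene for 28898 probe sets, several for 551 and none for 15588. Genes without a matched single-gene probe set were not analysed here.

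All 45037 remaining probe sets of the 9 arrays entered a linear model in limma 3.58.1 (R 4.3.3) with lmFit and eBayes. Its terms were the group and, as an additive block, the replicate number. The Benjamini-Hochberg method adjusted the p-values, with a threshold of 0.05. The block comes from the batch named in the methods. Deviations of same-numbered arrays from their group means had correlations of -0.626 to -0.132. Removing a mean of each replicate number before deposit would itself make such values negative, so they do not show whether the numbers pair the arrays, and counts without the block are given beside it. Single differences between the MPH labels also had an exact two-sided permutation test (scipy 1.17.1). The fit was tested on simulated data. Nothing shows that the arrays are separate animals, so p-values measure the spread between these arrays, and their number, 3 in a group, limits the precision.

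The members, lists and rules were chosen with earlier results of these data known. All member probe sets are named. Of each serotonin list, up to 4 genes with the largest absolute difference in either comparison with saline are named, plus genes whose role is described. The brightest probe set stands for a gene. Genes most like Tph2 are the 10 with the highest Pearson r among single-gene probe sets with a highest array of at least 5 and a range of at least 1. Alternatives were no block, only the groups compared, a second quantile normalization, median centring, an intensity trend, array weights, brighter probe sets only, each array left out, the average over all probe sets of a gene, and likeness by deviations from group means. Leaving out 2 arrays together was added after the data were seen.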

Additional observations from a re-analysis of the deposited data

How the results depend on the processing

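With 3 arrays in a group, 1 array can carry a value. Probe sets passing against saline went from 0 to 54 (1 mg/kg label) and 115 (10 mg/kg label) without the replicate block. Leaving out single arrays gave 0 to 1 in each, with 1 without saline replicate 2. In all of these fits 0 of the 7 probe sets of the 5 measured genes passed. Leaving out single arrays moved the difference from saline between -4.08 and -1.90 (Tph2) and between -2.77 and -1.18 (Slc6a4) at the 1 mg/kg label, and between -3.55 and -1.37 (Tph2) and between -2.48 and -0.89 (Slc6a4) at the 10 mg/kg label, all below 0. The difference of 10 against 1 mg/kg turned sign with array weights for Tph2 (-0.07) and Slc6a4 (-0.03), without 1 mg/kg MPH replicate 2 for Slc6a4 (-0.04), and without 10 mg/kg MPH replicate 1 for Tph2 (-0.46), Slc6a4 (-0.21), Htr1a (1438710_PM_at, -0.11) and Htr2c (1435513_PM_at, 0.10). At the other end, leaving out single arrays gave 1.06 (Tph2), 0.67 (Slc6a4), 0.71 (Htr1a, 1438710_PM_at), -0.21 (Htr2c, 1435513_PM_at) and -0.45 (Htr2c, 1450477_PM_at). With saline replicate 2 and 10 mg/kg MPH replicate 1 both left out, a choice made after the data were seen, it was -0.31 (Tph2), -0.06 (Slc6a4), -0.05 (Htr1a, 1438710_PM_at), 0.09 (Htr2c, 1435513_PM_at) and 0.01 (Htr2c, 1450477_PM_at). The cause of these moves was not tested. Over all alternatives the lowest adjusted p of a member for 10 against 1 mg/kg was 0.444 (Htr1a, 1450219_PM_at, without the block), and the highest was 0.998. The Slc6a4 probe set and the dimmer Htr1a one are not among the brighter probe sets, so that setting gave them no value.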

Other observations

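Ttr, transthyretin, the most abundant transcript of the choroid plexus, ran opposite to Tph2 and was picked out after its values were seen. Its log2 values were 9.68, 8.19 and 8.46 in saline replicates 1, 2 and 3, 9.14, 9.70 and 9.06 at the label of 1 mg/kg and 8.75, 9.51 and 9.85 at the label of 10 mg/kg, so the 3 arrays with the highest Tph2 were its 3 lowest (r = -0.89, and -0.96 within groups, as a description over 9 arrays). Of the other choroid plexus markers, Otx2 had r = -0.59 and Clic6 r = 0.75 with Tph2, the ends of their range, and the mean of the 8 markers lay between 4.52 and 4.73 in all arrays. Rgs9, a regulator of G protein signalling of the striatum, and Penk, which encodes enkephalin, also picked out after their values were seen, had r = 0.86 and 0.90 with Tph2 (0.97 and 0.75 within groups). The other measured striatum markers, Drd1 and Ppp1r1b, had r = -0.57 and 0.43 (-0.63 and -0.17 within groups).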
